A study of Rattus norvegicus with 6 samples.

Results

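The collagen gene family was described in the kidneys of 6 male rats, from all probe sets whose only annotated gene symbol has the form Col, number, a, number. A probe set is the group of short oligonucleotides that measures 1 transcript on an Affymetrix array. The rule found 41 collagen genes of the 14217 genes with such a probe set, measured by 58 of the 31042 probe sets tested. They were sorted into 19 fibrillar probe sets (11 genes), 7 of the basement membrane collagen type IV (5 genes), 3 of network collagens (types VIII and X, 3 genes) and 29 of other collagens (22 genes). Among the 44 collagen genes of the RefSeq table Col4a3, Col6a4 and Col28a1 had no such probe set and were not analysed here.

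The control group was 3 Dahl salt-sensitive (S) rats, an inbred strain prone to salt-sensitive hypertension and protein loss in the urine. The other group was 3 rats of the congenic strain S.LEW(10)x12x2x3x5, which has the S background with Lewis (LEW) rat alleles on part of chromosome 10. All rats were male, were born on 1 day, were weaned at 30 days, ate a 0.3% salt diet, shared cages between the strains and were killed at 53 days, and total RNA of each kidney went onto 1 array. The study concerned proteinuria and endosomal recycling in proximal tubules, and the arrays set kidney transcripts of the strains side by side. Whole kidney was used, so fewer cells of a type and less RNA per cell cannot be told apart.

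Collagens are secreted proteins whose chains wind around one another into a rope-like helix. Fibrillar collagens (types I, III, V and XI among them) build the tensile fibrils of connective tissue and, in kidney, are made mainly by interstitial fibroblasts and perivascular cells. Type IV forms the sheet-like net of basement membranes under tubules, capillaries and podocytes, while some other collagens coat fibrils or link them to cells. Excess interstitial collagen is the hallmark of renal fibrosis.

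Several properties of the arrays touch all values below. The array medians lay between 7.48 and 7.51 on the log2 scale, and with arrays the number of rats limits the precision. The kidney label held for its defining markers, with Umod, the uromodulin gene of the thick ascending limb, at a mean log2 intensity of 14.7 in S and 14.6 in congenic rats. S rat 2 stood apart. Its log2 intensity of Calb1, a distal tubule marker, was 9.38, against 12.73 or more in the other 5 rats. Slc12a3, another distal marker, was at 9.50 in S rat 2, against 11.73 or more in the others. The podocyte markers Nphs1 and Wt1 were at 5.67 and 5.05, against 6.90 or more and 6.89 or more. In each of these markers S rat 3 was the next lowest. S rat 1 and the congenic rats were at 13.46 or more for Calb1 and 12.21 or more for Slc12a3. They were at 8.27 or more for Nphs1 and 7.62 or more for Wt1. The distal markers Umod, Slc12a1 and Aqp2 were not lowest in S rat 2. RNA quality also moved with the groups. The signal at the 3′ end minus that at the 5′ end of the beta-actin and Gapdh controls, which grows as RNA breaks, averaged 1.79 ± 0.28 (log2, SD, n = 3) in the S rats and 1.12 ± 0.13 in the congenic rats. The groups did not overlap (two-sided exact permutation p = 0.1; 3 rats against 3 can give no smaller value), and S rat 2 had the highest value, 2.10. Collagen differences are therefore given also with this RNA quality measure as a term in the model.

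More collagen transcripts were higher than lower in the congenic kidney. Of 58 collagen probe sets 11, of 9 genes, rose at an adjusted p under 0.05, none fell and 47 did not pass. They measured Col1a1 and Col11a1 (fibrillar), Col4a1 (basement membrane), and Col6a3, Col6a5, Col9a1, Col12a1, Col14a1 and Col15a1 (other collagens), and the rises ran from 0.39 to 0.71 on the log2 scale. The family's 18.97% higher compares with 3.47% of all tested probe sets higher, and with 2.53% of all lower. The median difference, congenic minus S, was 0.12 over the collagen probe sets and -0.02 over all tested ones (log2). The difference was above 0 in 40 of 58 collagen probe sets (69.0%) and in 43.9% of all. In 22 collagen probe sets every congenic rat was above every S rat (37.9%, against 12.7% of all tested), and in 2 every congenic rat was below (18.4% of all). At an unadjusted p under 0.05 limma had 22 collagen probe sets higher (11.3% of all) and 2 lower, against 25.4% of all in either direction. Tests were made with limma on all probe sets, with Benjamini-Hochberg adjustment.

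The number of calls rested on single rats and on the test. Among collagens 13 probe sets were higher without S rat 1, 11 without S rat 2 (8 of the 11 above, with Col1a2, Col6a2 and a second Col6a3 probe set in place of Col6a5, Col12a1 and the called Col6a3 probe set), 5 without congenic rat 1, and 0 without S rat 3, congenic rat 2 or congenic rat 3. In these fits 8.69%, 1.99%, 0.683%, 0.00%, 0.00% and 0.0226% of all probe sets were called higher, in that order. In the fits with 0 collagen calls limma gave 19, 19 and 17 collagen probe sets higher at an unadjusted p under 0.05, against 9.80%, 9.11% and 8.12% of all; without S rat 2 and congenic rat 1 there were 24 and 19, against 9.67% and 9.98%. All 11 kept a difference above 0 in each of the 6 fits. That had to be so, because in all 11 every congenic rat was above every S rat. With the RNA quality term no probe set on the array passed; 19 collagen probe sets were higher at an unadjusted p under 0.05 (4.03% of all) and 1 was lower (3.36% of all), and the collagen median was 0.22 against -0.00063 over all probe sets.

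Other settings moved the collagen count as follows. Between 10 and 13 collagen probe sets were higher with quantile normalization, median centring, dim probe sets left out, an intensity trend or robust eBayes, against 3.34%, 3.62%, 5.39%, 4.80% and 3.46% of all. Without moderation of the variance 0 passed, and 16 were higher at an unadjusted p under 0.05 (8.30% of all). With array weights 20 were higher (10.1% of all) and Col11a2 was lower (9.50% of all), and at an adjusted p under 0.1 in limma 16 were higher (7.27% of all) and Col6a6 was lower (7.08% of all). With the rat number as a block 5 were higher (1.53% of all).

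**Figure D1:**
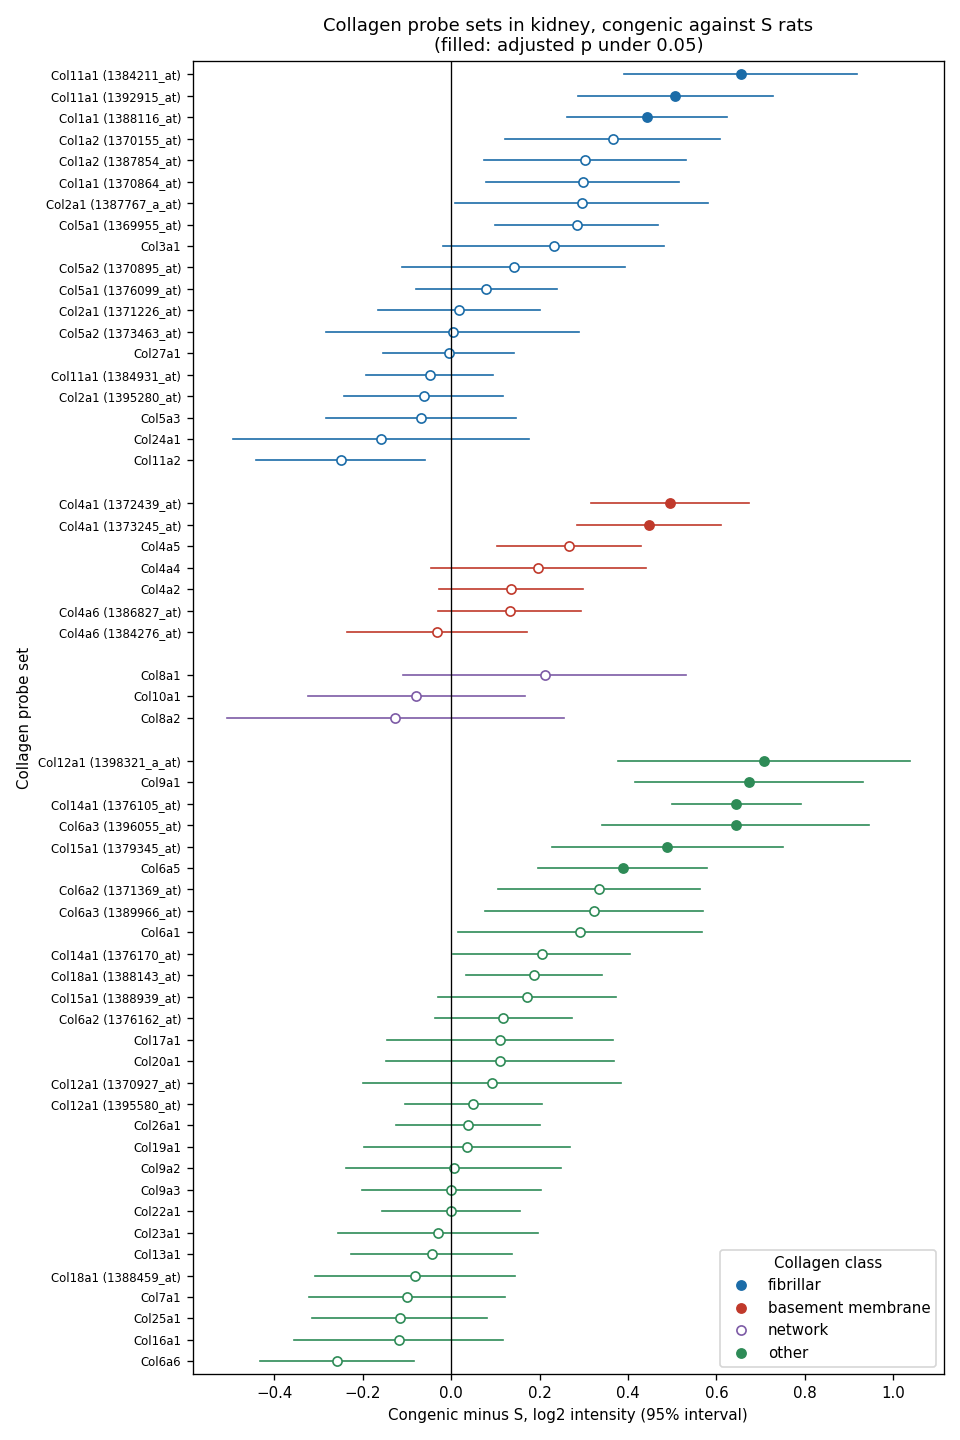
Differences between congenic and S rats for all 58 collagen probe sets, in log2 intensity on the x axis, with 95% intervals from limma, sorted within the 4 classes; filled points passed an adjusted p of 0.05. All 11 filled points lie above 0, between 0.39 and 0.71, and the 2 lowest differences are -0.26 (Col6a6) and -0.25 (Col11a2).

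The fibrillar collagens had 3 of 19 probe sets higher (3.47% of all tested), of Col1a1 and Col11a1, with a class median of 0.14 (0.03 without S rat 1). Col1a1 encodes the main chain of type I collagen, the most abundant collagen of scar tissue and of the body, and is 1 of the 2 collagen genes here on chromosome 10, where the congenic segment lies (the other is Col23a1). Its probe set 1388116_at had log2 intensities of 12.01, 12.002 and 12.13 in the S rats and 12.39, 12.62 and 12.46 in the congenic rats. Every congenic rat was above every S rat. The difference was 0.44 ± 0.08 (SE), 1.36-fold with a 95% interval of 1.199 to 1.54 (adjusted p = 0.0270). Neither the ends of the congenic segment nor LEW variants within probe sequences were analysed here.

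The second Col1a1 probe set and both Col1a2 probe sets, which measure the partner chain of type I collagen, missed the threshold, although the groups did not overlap in any of these 3. Probe set 1370864_at of Col1a1 was at 11.05, 11.41 and 11.35 in the S rats and 11.54, 11.60 and 11.57 in the congenic rats (log2; difference 0.30, adjusted p = 0.0967). Probe set 1370155_at of Col1a2 was at 11.14, 11.58 and 11.40 in the S rats and 11.71, 11.74 and 11.77 in the congenic rats (log2; difference 0.36, adjusted p = 0.0765). In all 3 the S rats were spread more widely than the congenic rats, with S rat 1 lowest. The other Col1a2 probe set stood at a difference of 0.30 (log2, adjusted p = 0.103). The log2 level of Col1a1 minus that of Col1a2 (means of 2 probe sets each) was 0.31 ± 0.11 in S and 0.34 ± 0.05 in congenic rats (SD, n = 3), so the chains' ratio differed by less than the spread between rats (exact permutation p = 0.8, two-sided).

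Col3a1, the chain of type III collagen that accompanies type I in reticular fibres, was at 12.77, 13.21 and 13.04 in the S rats and 13.17, 13.23 and 13.31 in the congenic rats (log2). The groups overlapped, since S rat 2 was above congenic rat 1. The difference was 0.23 with a fold interval of 0.99 to 1.40 (adjusted p = 0.23). Type V collagen starts and limits fibril growth. Its Col5a1 probe sets differed by 0.28 (adjusted p = 0.0715) and 0.08, those of Col5a2 by 0.14 and 0.0032, and the Col5a3 probe set by -0.07 (log2; adjusted p = 0.48 or more for the last 4).

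Type XI collagen, the core of thin cartilage fibrils, gave the largest fibrillar rise. Col11a1 probe set 1384211_at was at 6.79, 6.94 and 6.64 in the S rats and 7.38, 7.29 and 7.68 in the congenic rats (log2; difference 0.66 ± 0.12 SE, 1.58-fold, adjusted p = 0.0259). Probe set 1392915_at was at 7.68, 7.84 and 7.57 in the S rats and 8.28, 8.04 and 8.29 in the congenic rats (log2; 0.51 ± 0.10 SE, 1.42-fold, adjusted p = 0.0313). In both, the groups were apart. The third Col11a1 probe set was dim in every rat, between 4.05 and 4.18, and stood at -0.05. Col11a2, the partner chain, went the other way without passing: 7.53, 7.28 and 7.51 in the S rats and 7.19, 7.12 and 7.26 in the congenic rats (log2; -0.25, adjusted p = 0.107). The cartilage collagen Col2a1 had 3 dim probe sets, at group means from 5.43 to 5.72, with differences from -0.06 to 0.30, and none passed. Col24a1 stood at -0.16 and Col27a1 at -0.0059 (log2).

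**Figure D2:**
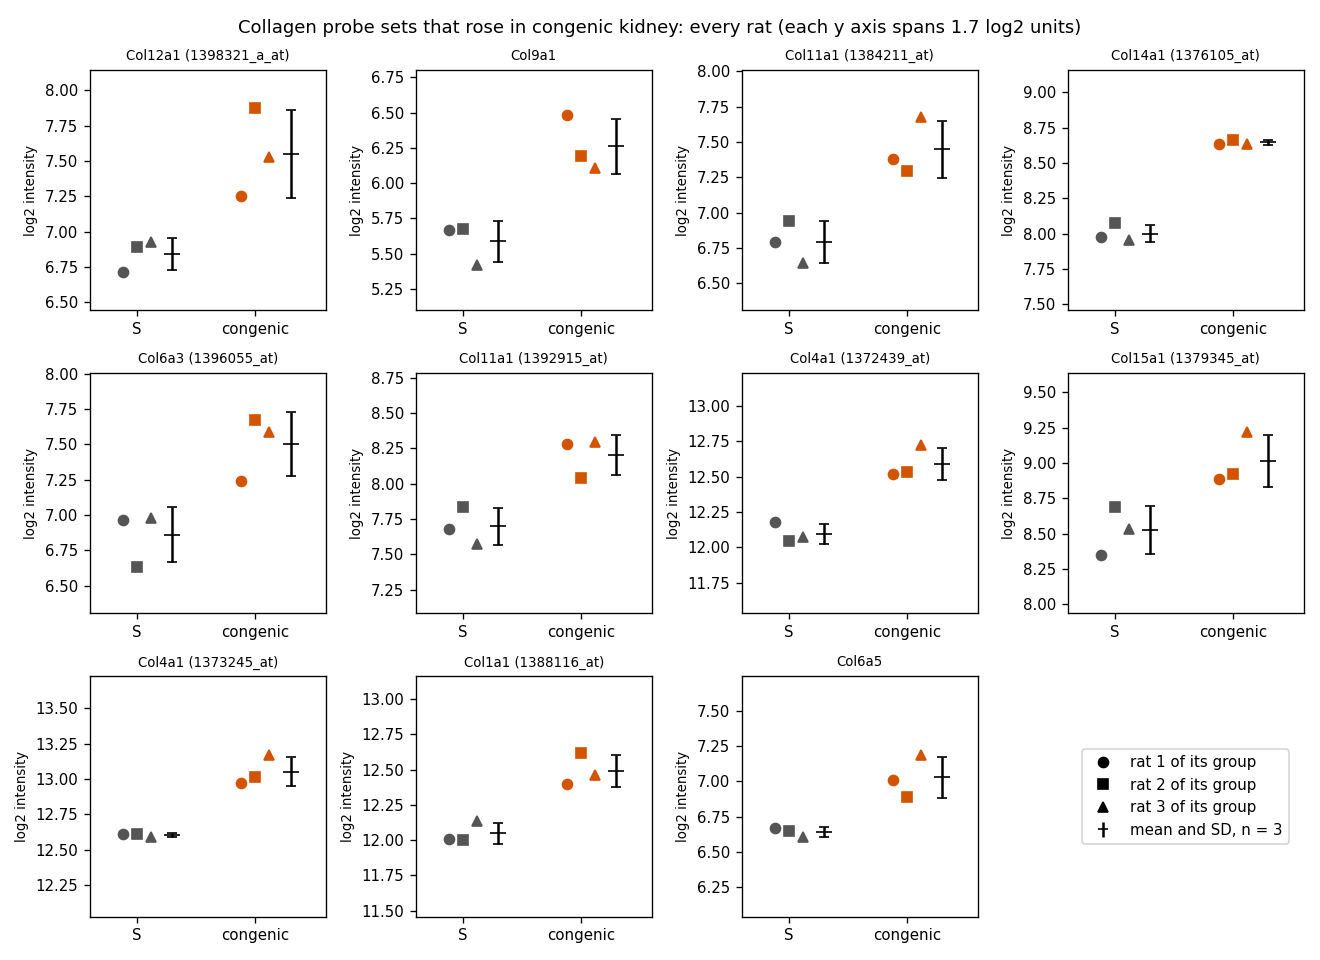
Log2 intensity (y axis) of the 11 collagen probe sets that rose, for each S rat (grey) and congenic rat (orange), with the group mean and SD (n = 3); every panel spans the same height. In all 11 panels the 3 congenic rats lie above the 3 S rats.

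Among basement membrane collagens Col4a1 rose at both of its probe sets, and Col4a2, Col4a4, Col4a5 and Col4a6 did not pass; the class median was 0.20 (0.31 without S rat 1). Chains of Col4a1 and Col4a2 assemble together into the type IV net found in all basement membranes. Probe set 1373245_at of Col4a1 was at 12.61, 12.61 and 12.59 in the S rats and 12.97, 13.01 and 13.17 in the congenic rats (log2). The S rats were nearly equal and all congenic rats were higher (difference 0.45 ± 0.07 SE, 1.36-fold with a 95% interval of 1.22 to 1.53, adjusted p = 0.0220). Probe set 1372439_at was at 12.18, 12.04 and 12.07 in the S rats and 12.52, 12.53 and 12.72 in the congenic rats (log2; 0.50 ± 0.078 SE, 1.41-fold, adjusted p = 0.0220). Col4a1 is the 1 of 14 collagen genes with several probe sets in which all passed. Both probe sets were called in 3 of the 6 fits that left out 1 rat.

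Col4a2 was at 12.80, 12.95 and 12.89 in the S rats and 12.999, 12.96 and 13.09 in the congenic rats (log2). The congenic rats lay just above the S rats, by 0.14 (1.10-fold, interval 0.98 to 1.23, adjusted p = 0.28). The log2 level of Col4a1 (mean of 2 probe sets) minus that of Col4a2 within each rat was -0.40, -0.63 and -0.57 in the S rats and -0.25, -0.19 and -0.15 in the congenic rats. This value was 0.34 higher in the congenic rats, with no overlap, and did not pass adjustment (exact permutation p = 0.1, the smallest that 3 against 3 allow; adjusted p = 0.24 over 19 such comparisons of probe sets within a rat).

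Because these genes lie head to head, their start regions are shown, from RefSeq on the GRCr8 assembly, 5′ to 3′ on each gene's own strand, from 250 bases before the start to 50 after it. The Col4a1 window is chr16:84885347-84885646 on the plus strand and the Col4a2 window chr16:84885471-84885770 on the minus strand. Capitals mark the 76 bases between the starts, which both windows hold on opposite strands.
Col4a1: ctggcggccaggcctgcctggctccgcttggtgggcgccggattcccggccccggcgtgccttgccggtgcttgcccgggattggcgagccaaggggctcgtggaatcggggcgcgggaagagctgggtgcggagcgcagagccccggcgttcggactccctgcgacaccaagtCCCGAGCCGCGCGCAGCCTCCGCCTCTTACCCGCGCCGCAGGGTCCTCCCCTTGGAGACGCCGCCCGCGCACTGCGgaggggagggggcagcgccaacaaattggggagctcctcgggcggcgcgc
Col4a2: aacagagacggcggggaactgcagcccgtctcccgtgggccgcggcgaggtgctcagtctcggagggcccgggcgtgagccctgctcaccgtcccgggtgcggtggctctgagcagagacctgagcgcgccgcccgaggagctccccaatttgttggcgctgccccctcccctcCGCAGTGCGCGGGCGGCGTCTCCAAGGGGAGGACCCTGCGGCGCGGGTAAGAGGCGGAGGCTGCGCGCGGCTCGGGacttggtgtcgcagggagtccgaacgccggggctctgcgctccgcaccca
The windows share 176 bases, and the stretch between the starts is 78.9% G or C. The Sp1-type box GGGCGG, searched on both strands, occurs between the starts. Of all 33469 start windows 33.1% hold it, but these span 300 bases each, more than the 76 between the starts. CCAAT occurs in both windows (37.5% of all) but not between the starts, and TATAAA in neither (14.2% of all). Across the 35 windows of 32 collagen genes in that table GGGCGG occurred in 54.3%, CCAAT in 28.6% and TATAAA in 11.4%. A match is a description of letters only. The arrays measure transcripts and say nothing of which start region was used.

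The chains Col4a3, Col4a4 and Col4a5 form the net of the glomerular basement membrane that fails in Alport syndrome. Col4a5 was at 11.63, 11.47 and 11.45 in the S rats and 11.78, 11.76 and 11.82 in the congenic rats (log2). The groups did not overlap, but the difference of 0.27 (1.203-fold, interval 1.07 to 1.35) missed the threshold (adjusted p = 0.0616). Col4a4 was at 7.66, 7.29 and 7.35 in the S rats and 7.74, 7.53 and 7.63 in the congenic rats (log2), with overlapping groups and a difference of 0.20 (adjusted p = 0.29). The Col4a6 probe sets differed by 0.13 and -0.03 (log2; adjusted p = 0.29 and 0.87).

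None of the 3 network collagens passed. These form hexagonal lattices, type VIII around vessels and type X in growth cartilage. Col8a2 was at 9.83, 10.58 and 10.19 in the S rats and 10.10, 9.95 and 10.16 in the congenic rats (log2; difference -0.13). The S rats ranged on both sides of the congenic rats. Col8a1 stood at 0.21 and Col10a1 at -0.08 (log2; adjusted p = 0.40 and 0.71).

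Of the other collagens 6 of 29 probe sets rose (3.47% of all tested) and none fell (2.53% of all tested), with a class median of 0.11. The fibril-associated collagens with interrupted helices, which sit on the surface of fibrils, had 3 of 12 probe sets higher (3.47% of all tested). Col14a1 probe set 1376105_at was at 7.98, 8.07 and 7.95 in the S rats and 8.64, 8.66 and 8.64 in the congenic rats (log2). The rats of each group were close together and the groups far apart, with a difference of 0.64 ± 0.06 (SE), 1.56-fold with an interval of 1.41 to 1.73, and the smallest adjusted p of the family, 0.00918. The second Col14a1 probe set, 1376170_at, was at 6.87, 7.17 and 7.05 in the S rats and 7.28, 7.26 and 7.17 in the congenic rats (log2; 0.20, adjusted p = 0.189). There S rat 2 was above congenic rat 3. Its log2 level minus that of the called probe set was -0.97 ± 0.12 (SD) in the S rats and -1.41 ± 0.058 in the congenic rats, without overlap (exact permutation p = 0.1, adjusted p = 0.24). The called probe set differed by 0.75 once RNA quality was in the model (limma adjusted p = 0.436).

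Col12a1, which binds type I fibrils, had the largest difference of the family at a dimmer probe set. Its probe set 1398321_a_at was at 6.71, 6.89 and 6.93 in the S rats and 7.25, 7.87 and 7.53 in the congenic rats (log2; 0.71 ± 0.14 SE, 1.63-fold, adjusted p = 0.0341). Congenic rat 2 was highest and the congenic rats were spread widely (SD 0.31). The brightest Col12a1 probe set was at 11.15, 11.67 and 11.53 in the S rats and 11.46, 11.53 and 11.64 in the congenic rats, with overlap and a difference of 0.09 (log2, adjusted p = 0.72). Col9a1, a chain of the type IX collagen that decorates cartilage fibrils, was at 5.67, 5.67 and 5.42 in the S rats and 6.48, 6.20 and 6.11 in the congenic rats (log2; 0.67 ± 0.11 SE, 1.59-fold, adjusted p = 0.0235). The S mean of 5.59 lay below the lower quartile of every array (5.88 to 5.96), and no detection call was used, so the exact fold is uncertain. Its partner chains stood at 0.0054 (Col9a2) and -0.00047 (Col9a3). Col16a1, Col19a1, Col20a1 and Col22a1 lay between -0.12 and 0.11 (log2), and none passed.

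Type VI collagen forms beaded filaments around cells and links them to the matrix. Of its 7 probe sets 2 rose (3.47% of all tested), the class median was 0.32, and in 5 every congenic rat was above every S rat (12.7% of all tested). Col6a3 probe set 1396055_at was at 6.96, 6.63 and 6.98 in the S rats and 7.24, 7.67 and 7.59 in the congenic rats (log2; 0.64 ± 0.13 SE, 1.56-fold, adjusted p = 0.0349). The brighter Col6a3 probe set, at 11.52, 11.90 and 11.63 in the S rats and 11.97, 11.91 and 12.14 in the congenic rats, missed the threshold (log2; 0.32, adjusted p = 0.105). There S rat 2 almost reached the lowest congenic rat. Col6a5 was at 6.67, 6.65 and 6.60 in the S rats and 7.01, 6.89 and 7.18 in the congenic rats (log2; 0.39 ± 0.084 SE, 1.31-fold, adjusted p = 0.0384).

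The core chains Col6a1 and Col6a2 leaned the same way and did not pass. Col6a1 was at 9.84, 10.30 and 9.99 in the S rats and 10.27, 10.26 and 10.48 in the congenic rats (log2; 0.29, adjusted p = 0.176). The brighter Col6a2 probe set was at 10.33, 10.72 and 10.49 in the S rats and 10.82, 10.80 and 10.92 in the congenic rats (log2; 0.33, adjusted p = 0.0825). As in Col1a2 and Col3a1, S rat 1 was lowest and S rat 2 highest among the S rats in both. Col6a6 was the exception in type VI, at 8.62, 8.76 and 8.57 in the S rats and 8.45, 8.31 and 8.42 in the congenic rats, with every congenic rat lower (log2; -0.26, 0.84-fold, adjusted p = 0.0788).

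The multiplexins Col15a1 and Col18a1 are collagens with proteoglycan chains at the basement membrane zone, and Col18a1 is the source of endostatin. Col15a1 probe set 1379345_at was at 8.35, 8.69 and 8.54 in the S rats and 8.89, 8.93 and 9.22 in the congenic rats (log2; 0.49 ± 0.11 SE, 1.40-fold, adjusted p = 0.0456). The brighter Col15a1 probe set was also without overlap and differed by 0.17 (log2, adjusted p = 0.27). The Col18a1 probe sets differed by 0.19 (adjusted p = 0.13) and -0.08 (log2). The membrane-spanning collagens Col13a1, Col17a1, Col23a1 and Col25a1 lay between -0.12 and 0.11, the anchoring fibril gene Col7a1 at -0.10 and Col26a1 at 0.04 (log2), and none of these 6 passed.

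Probe sets of 1 gene did not always differ alike. Of 14 collagen genes with several probe sets 1 had all called, 6 had some called and 7 had none, and in 4 (Col2a1, Col4a6, Col11a1 and Col18a1) the signs differed. No such shares over all genes with several probe sets are given here, so these counts are not read as a trait of the collagens. In Col6a3, Col12a1 and Col15a1 the called probe set was not the brightest, so with the brightest probe set of each gene alone 6 of 41 collagen genes rose and 0 fell, against 2.12% of all genes higher and 2.67% lower. In Col12a1 the log2 level of the called probe set minus that of the brightest was -4.61 ± 0.17 in S and -3.99 ± 0.30 in congenic rats (SD, n = 3), without overlap (exact permutation p = 0.1, adjusted p = 0.24). In Col6a3 the called minus the brightest probe set averaged -4.83 ± 0.39 (SD) in the S rats and -4.51 ± 0.25 in the congenic rats, with overlap (exact permutation p = 0.4). Which transcript forms the probe sets measure was not analysed here. Of the 30 collagen probe sets brighter than the median of all probe sets 6 rose (4.48% of all such probe sets). Of the 28 others 5 rose (2.46% of all such). None of the 10 whose mean over all rats lay below the lower quartile of all did. That mean includes the congenic rats, and the called Col9a1 probe set lay just above the cut, at percentile 25.1. No share called among all probe sets below the cut is given here.

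**Figure D3:**
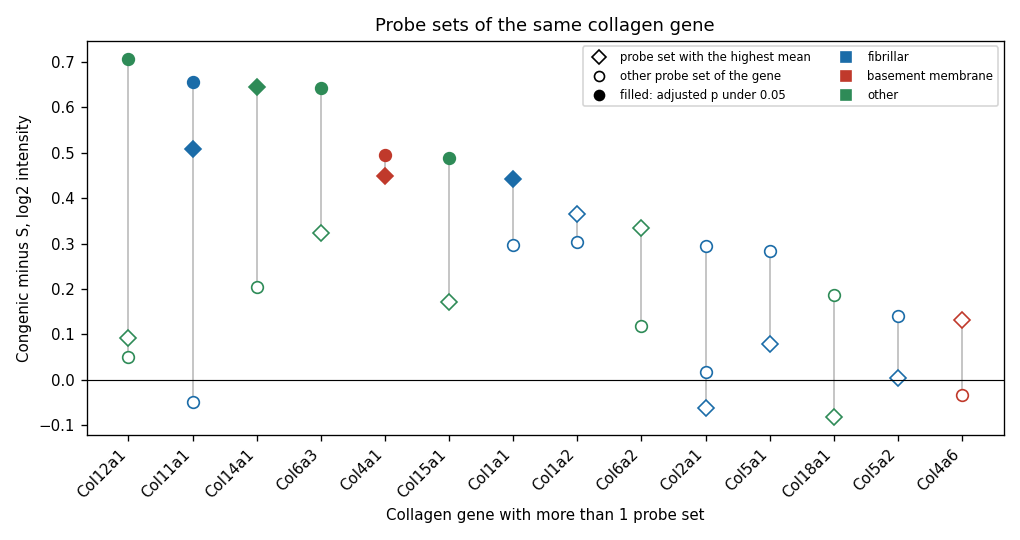
Difference between congenic and S rats (y axis, log2 intensity) for each probe set of the 14 collagen genes with more than 1; diamonds are the brightest probe set of the gene and filled points passed an adjusted p of 0.05. The Col4a1 points lie close together, at 0.45 and 0.50, while those of Col12a1 run from 0.05 to 0.71.

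S rat 1 had the lowest collagen level in every class but the basement membrane. As a collagen level for each rat, the median over the probe sets of the deviation from the mean of the 6 rats was taken. Over all 58 collagen probe sets it was -0.16, -8.27e-05 and -0.04 in the S rats and 0.05, 0.03 and 0.10 in the congenic rats (log2). S rat 1 was the lowest of all 6 rats in 29 of 58 probe sets, and congenic rat 3 the highest in 23. The fibrillar level was -0.25 in S rat 1 and -0.0087 and -0.04 in the other S rats, against 0.03 to 0.15 in congenic rats. The basement membrane level did not single out S rat 1: it was -0.15, -0.18 and -0.19 in the S rats and 0.13, 0.03 and 0.14 in the congenic rats. The network and other levels overlapped between the groups. The S rats varied more than the congenic rats in 41 of 58 collagen probe sets (70.7%, and 64.2% of all probe sets), with a median SD of 0.15 in S and 0.07 in congenic rats.

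**Figure D4:**
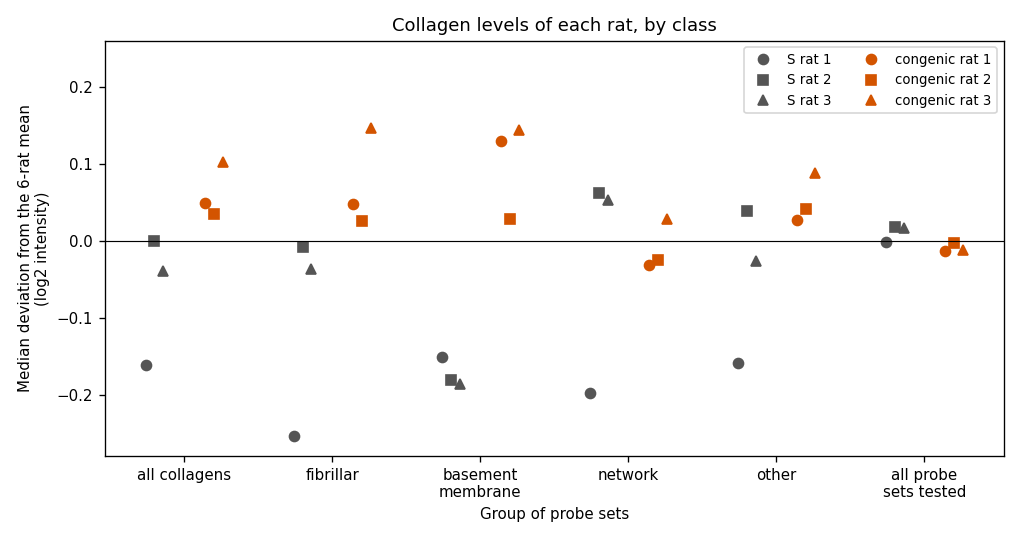
Collagen level of each rat (y axis, median deviation from the mean of 6 rats in log2 intensity) for all collagens, the 4 classes and all tested probe sets; grey points are S rats and orange points congenic rats. For all collagens the S rats lie from -0.16 to -8.27e-05 and the congenic rats from 0.03 to 0.10, and S rat 1 is the lowest grey point in every class except the basement membrane.

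RNA quality moved with the groups, and most collagen differences shifted upward with it in the model. With the term the signed difference was larger in 40 of 58 collagen probe sets, against 52.9% of all probe sets. Negative differences that shrank, such as that of Col6a6 (from -0.26 to -0.035), count as larger here. Among the 11 called it was larger in 6: from 0.66 to 0.86 and from 0.51 to 0.81 for Col11a1, from 0.67 to 0.91 for Col9a1, from 0.64 to 0.75 for Col14a1, from 0.49 to 0.75 for Col15a1 and from 0.39 to 0.41 for Col6a5. It was smaller for Col4a1 (from 0.45 to 0.41 and from 0.50 to 0.35), Col1a1 (from 0.44 to 0.30) and Col12a1 (from 0.71 to 0.56). For the called Col6a3 probe set it shrank from 0.64 to 0.07, while the brighter one grew from 0.32 to 0.71. Col3a1 went from 0.23 to 0.60, the Col1a2 probe sets from 0.36 to 0.75 and from 0.30 to 0.55, and Col6a1 from 0.29 to 0.74 (log2), all at an unadjusted p under 0.05 by limma and none past the adjustment. Of the 47 uncalled probe sets 16 changed sign, among them Col8a2 (from -0.13 to 0.65) and Col8a1 (from 0.21 to -0.35). The term itself separates the groups, so group and RNA quality can be told apart only through the spread within the groups. S rat 2 had the highest value of the measure, so the term cannot tell RNA quality apart from other traits of that rat. Of markers lowest in S rat 2, Calb1 went from 1.62 to -2.70 and Wt1 from 1.05 to -1.78 with the term (log2).

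**Figure D5:**
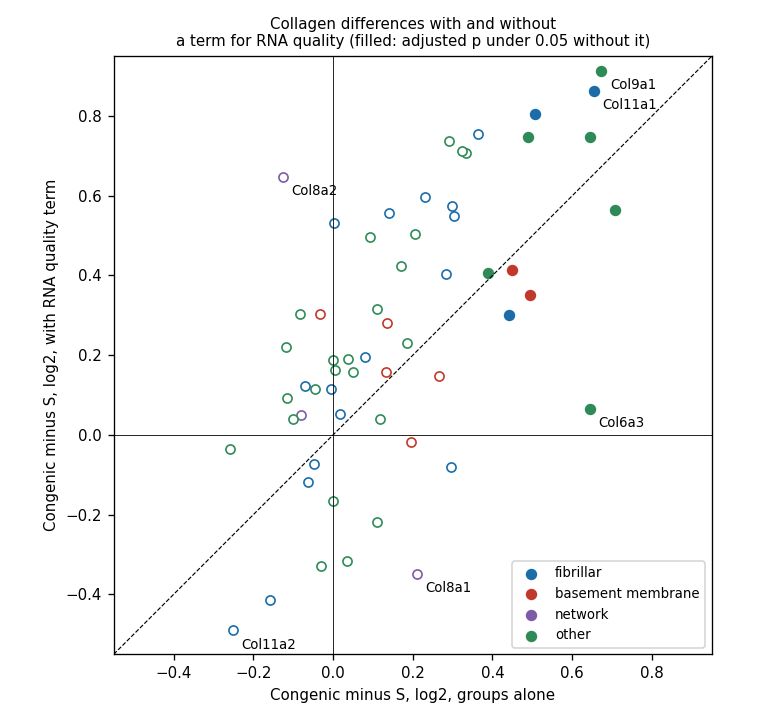
Difference between congenic and S rats (log2 intensity) of the 58 collagen probe sets from the groups alone (x axis) and with the RNA quality measure in the model (y axis); the dashed line marks equal values and filled points passed an adjusted p of 0.05 without the term. Most points lie above the line, 40 of 58, and the called Col6a3 probe set falls from 0.64 to 0.07.

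Genes that make, process and bind collagen were mostly below the threshold, as were most genes. For these lists the brightest probe set stood for its gene, and by that probe set 2.12% of all genes were higher and 2.67% lower. In lists this small, 0 or 1 call is not read as a trait of the list. Of 22 measured genes of collagen synthesis (modifying enzymes, chaperones and export factors) 1 rose, 0 fell and 21 did not pass. The 1 was Serpinh1, which encodes HSP47, the chaperone specific to procollagen. It was at 11.64, 11.50 and 11.68 in the S rats and 12.13, 12.28 and 12.29 in the congenic rats (log2), with all congenic rats above all S rats (0.63 ± 0.08 SE, adjusted p = 0.0163, and 0.38 with the RNA quality term). Its probe set name ends in _s_at, the Affymetrix mark for probes that can match more than 1 transcript.

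Of 8 measured genes of collagen processing and cross-linking 1 rose, 0 fell and 7 did not pass. Tgm2, a transglutaminase that cross-links matrix proteins, was at 12.82, 12.51 and 12.55 in the S rats and 13.03, 13.08 and 13.17 in the congenic rats (log2; 0.47 ± 0.094 SE, adjusted p = 0.0333, and 0.17 with the RNA quality term). The groups did not overlap. None of 5 measured collagen receptor genes passed, with Itga11, an integrin chain for fibrillar collagen, at 0.27 (adjusted p = 0.0758) and the kinase receptor Ddr1 at 0.14. The list medians were 0.07, 0.08 and 0.08, against -0.03 over all genes (log2).

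Some markers of cell types in or around the kidney also passed the threshold, and others did not. Over all genes 2.12% were higher and 2.67% lower by the brightest probe set. Of 11 fibroblast markers 3 rose, the matrix protein genes Lum (1.76), Fbln5 (0.58) and Dcn (0.57), and 8 did not pass. The 8 were Mfap5 (0.38), Fbln1 (0.34), Dpt (0.29), Postn (0.29), Gsn (0.078), Pdgfrb (0.043), Pdgfra (0.0088) and Thy1 (-0.27). The mean log2 level over the 11 markers ran from 9.18 to 9.31 in S and from 9.56 to 9.68 in congenic rats. Of 7 macrophage markers 4 rose (Cd14, C1qb, Lyz2 and C1qa, by 0.35 to 0.46), with mean levels of 9.58 to 9.88 in S and 9.89 to 10.03 in congenic rats. The 3 that did not pass were Adgre1 (0.13), Cd68 (0.055) and Csf1r (-0.045), with overlapping groups in each. Of 6 proximal tubule markers 1 rose, Slc5a2, the glucose transporter SGLT2 (1.67, adjusted p = 0.0333 by limma, and 0.60 with the RNA quality term), with mean levels of 12.32 to 12.65 in S and 12.73 to 12.94 in congenic rats. Slc5a2 had by far the largest difference of the 6. The 5 that did not pass went both ways: Slc34a1 (0.28), Slc22a6 (0.24), Cubn (0.042), Miox (-0.0085) and Lrp2 (-0.094). In Lrp2 every congenic rat was below every S rat. None of 7 smooth muscle and pericyte markers, 7 endothelial markers or 6 podocyte markers passed; their mean levels were 8.70 to 9.25, 9.44 to 9.51 and 7.44 to 9.06 in S and 9.15 to 9.32, 9.59 in every rat and 8.74 to 8.95 in congenic rats. With the RNA quality term the fibroblast median went from 0.29 to 0.49 and the macrophage median from 0.35 to 0.50. The proximal tubule median went from 0.14 to 0.046 and the endothelial from -0.02 to 0.09. Medians of smooth muscle and pericyte markers (from 0.33 to -0.28) and podocyte markers (from 0.65 to -0.30) changed sign.

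Mean marker levels of fat and of the urothelium lay lower in every congenic rat than in any S rat. Among 5 adipocyte markers 1 passed: Cidec, which coats lipid droplets, fell by 0.61, with mean levels of 9.04 to 9.71 in S and 8.49 to 9.001 in congenic rats. With the RNA quality term Cidec stood at -0.28, and the adipocyte median went from -0.61 to -0.28. Ucp1 had the largest difference of the 5, -1.14 (adjusted p = 0.0507 by limma), and stood at -1.18 with the term. Of 5 urothelial markers Upk1a, a uroplakin, fell by 0.80 and 4 did not pass, with mean levels of 7.26 to 7.76 in S and 6.99 to 7.08 in congenic rats. With the RNA quality term Upk1a stood at -0.038, and the urothelial median went from -0.51 to -0.038. No marker value can be read as 0 on these arrays; the dimmest, the adrenal marker Cyp11b1, had a mean log2 intensity of 4.44 in S and 4.39 in congenic rats. The part of tissue content and of RNA quality in the collagen differences was not tested.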

How the data were processed

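Kidney RNA of 6 rats was measured on the Rat Expression Array 230 2.0 of Affymetrix, per the labels' protocols and the series' design text. The authors deposited log2 probe set intensities (3.76 to 15.1). The sources used here do not state background correction, summarization, genome build, scan date or batch. Gene symbols came from the platform table; Entrez identifiers matched all 58 collagen probe sets to RefSeq (GRCr8). The 57 control probe sets were left out.

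The strains were compared by limma 3.58.1 (R 4.3.3; lmFit, eBayes), two-sided, with Benjamini-Hochberg adjustment over 31042 probe sets, a threshold of 0.05 and 95% intervals (4 residual degrees of freedom, 8.49 with the prior). The test was tried on simulated data first, where it recovered 53.7% of changes of 0.5 and 92.5% of changes of 1.0 (log2). With 3 separate animals in a group, p-values rest on the spread between these rats, moderated by the spread over all probe sets. Arrays correlated at 0.985 to 0.998, and no pair was identical.

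The members and lists were chosen with earlier results of these data known. Values are given for called members, differences of at least 0.5, the major kidney collagens, genes with several probe sets, and of each gene list up to 3 called genes or else up to 2 by smallest p. The fibroblast, macrophage and proximal tubule markers named, Hspg2, Lamb2, Lamb3, Agrn, Nid2, Cidec, Upk1a, Col6a6, Col11a2, Col8a1, Col8a2, Umod, Calb1 and Cyp11b1 were singled out with values in view. So were Slc12a3, Slc12a1, Aqp2, Nphs1, Wt1 and Ucp1. Alternatives covered scaling (quantile, median), a floor at percentile 40 of mean intensity, the variance model (trend, robust, unmoderated), weighted arrays, blocking on rat number, the RNA quality term, 1 probe set per gene, an adjusted p of 0.1, class borders and leaving out each rat. Figures were drawn with matplotlib 3.10.9.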

Additional observations from a re-analysis of the deposited data

How the results depend on the processing

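The count of 1862 called probe sets became 0 with an unmoderated test (6166 at an unadjusted p under 0.05), 6077 with array weights, 658 with the rat number as a block and 0 with the RNA quality term (2292 at an unadjusted p under 0.05 by limma), and ran from 0 to 4752 without single rats. The 11 collagen probe sets higher became 0 with an unmoderated test (16 at an unadjusted p under 0.05), 20 with array weights, 5 with the block, 0 with the RNA quality term and 6 with 1 probe set per gene, and ran from 0 to 13 without single rats; with quantile normalization, median centring, the filter on dim probe sets, the intensity trend, robust eBayes and an adjusted p of 0.1 they stayed between 10 and 16. Of the collagens lower, 0 in the fit reported, 1 appeared with array weights (Col11a2) and 1 at an adjusted p of 0.1 (Col6a6). The median collagen difference of 0.12 was 0.19 without dim probe sets and 0.22 with the RNA quality term, and stayed above 0 under every alternative named here. The network median of -0.08 turned to 0.042 without dim probe sets and 0.049 with the RNA quality term, and ran from -0.20 to 0.065 without single rats. Rats of the same number did not deviate together (correlations of -0.01, -0.18 and -0.14), and the labels do not tie the numbers to shared cages, so the numbers were not taken to pair the rats; the 5 collagen calls kept in the block fit were those of Col4a1 (both probe sets), Col9a1, Col12a1 and Col14a1. Counting the multiplexins with the basement membrane collagens gave that class a median of 0.19. The cause of these shifts was not tested.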

Other observations

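Other basement membrane components showed no call beside the rise of Col4a1. None of 14 measured genes for laminins, nidogens, perlecan and agrin passed, where 2.12% of all genes were higher and 2.67% lower. Their median difference was 0.04, against -0.03 over all genes by the brightest probe set (log2). Lama3, a laminin chain of epithelia, was at 8.18, 7.99 and 8.14 in the S rats and 8.38, 8.37 and 8.42 in the congenic rats (difference 0.29, adjusted p = 0.0535 by limma). Lama1, a laminin chain of tubular basement membranes, was at 7.84, 7.75 and 7.85 in the S rats and 8.12, 7.98 and 8.20 in the congenic rats (0.28, adjusted p = 0.0631 by limma). Every congenic rat was above every S rat in 3 of the 14 (12.7% of all tested probe sets), Lama1, Lama3 and the perlecan gene Hspg2 (0.18). Every congenic rat was below every S rat in 4 (18.4% of all tested probe sets), Lamb2 (-0.24, adjusted p = 0.104 by limma), Lamb3 (-0.21), Agrn (-0.14) and Nid2 (-0.12). With only 14 genes these counts are not read as a trait of the list. With the RNA quality term Lama3 stood at 0.078, Lama1 at 0.22 and Lamb2 at -0.011.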
